A study of Mus musculus with 4 samples.

Results

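STAT3 signalling carries signals of the interleukin-6 and interleukin-10 cytokine families into the nucleus, and 10 genes of that pathway are described here as loci at which Fos was mapped in mouse colon. The genes were taken by symbol: the receptor genes Il6ra, Osmr, Il22ra1, Il10rb and Il6st, the Janus kinase genes Jak1 and Jak2, the transcription factor gene Stat3 and the inhibitor genes Socs1 and Socs3. They are 10 of the 21631 protein-coding genes of the RefSeq table on the autosomes and chromosome X, and all 10 matched it. A Fos summit, the base of highest signal within a called peak, was counted for a gene when it lay inside the gene or within 50 kb of either end.

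Cytokines of this pathway bind paired receptor chains on the cell surface. The chains bring Janus kinases together, the kinases phosphorylate STAT3, and STAT3 dimers enter the nucleus and switch on target genes, among them the SOCS genes, whose products shut the receptors off again. In the gut, interleukin-22 acts on epithelial cells, which carry its receptor, and STAT3 there is known for its part in wound repair and antimicrobial defence. Fos is a subunit of the transcription factor AP-1, which growth signals, stress and injury induce, and STAT3 itself is a known activator of the Fos gene.

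Fos was profiled by CUT&Tag, in which an antibody brings a tagging transposase, Tn5, to the DNA near its target. The nuclei came from scraped colonic mucosa of WT mice, which the sample titles call colonic epithelial tissue. All 4 libraries are recorded with 4 mM EDTA, 10% serum and an incubation of 30 minutes. There were 2 libraries of colitis recovered animals, given 1 to 1.5% dextran sodium sulfate (DSS, an irritant of the colon) in 3 cycles of 7 days followed by 10 days off and killed 22 days after the last cycle, and 2 libraries of healthy controls, all of batch DSS21. The authors' deposited file was a single MACS2 peak list for the series in mm10 coordinates, so colitis recovered and healthy colon could not be compared, no value has a replicate error, and no test was run. No library of a control antibody was used here, and the share of the signal that comes from open chromatin cut without Fos was not measured.

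The list held 178981 summits in 108406 regions. Column 7 of the list, the authors' fold of each summit over background, is the measure of strength throughout. It moved in steps, each read here as 1 fragment, over a background of 3.16 fragments, so the pileup (the number of fragments over the summit) could be read from it. The command of the peak caller is not given, so whether a step is a fragment or a single read is unknown. Intervals on pileups are exact 95% Poisson intervals that take each step as independent. They cover counting error only, and depth per library is unknown. The labelled tissue, colonic epithelium, was checked by markers of its cells. All 8 colonic epithelium markers (among them Cdh1, Krt8, Krt20, Vil1 and Cdx2) had a summit no more than 1 kb from one end of the gene, with a median of 71.5 summits per gene, against 1 of 6 leukocyte, 2 of 4 fibroblast and 0 of 3 endothelial markers, with medians of 14, 8 and 18 summits. Over all protein-coding genes, 62% had such a summit and the median was 16 summits. The median counts of leukocyte and endothelial markers were thus near that of genes in general, while their end summits were rarer, in lists of 6 and 3 genes. Ptprc, the pan-leukocyte gene, and Col3a1, a fibroblast collagen gene, had 0 summits in their windows, while Cd3e of T cells had 28, Col1a1 26 and Pecam1 of endothelium 32. Itgam of myeloid cells had 25, with an end fold of 104.2 but no summit within 1 kb of its start of transcription. Of markers with a listed start, 7 of 7 epithelial ones had a start summit. The counts were 0 of 5 for leukocytes, 0 of 2 for fibroblasts and 0 of 1 for endothelium, against 62.2% of all genes. Whether other cells of the mucosa contributed to the summits described next was not tested.

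Sequence before the start of transcription is shown for the 4 genes that each had a Fos summit within these bases and that differ in the letters they hold. Each run is the 250 bases before the start from RefSeq (GRCm38.p6, the assembly of mm10), written 5′ to 3′ on the strand of the gene. Capitals mark the AP-1 letters TGANTCA, the STAT letters TTCNNNGAA or the related cyclic AMP response element TGACGTCA, searched on both strands; TGACGTCA was added after the sequences had been seen. The positions are chr4:135727909-135728158 (plus strand) for Il22ra1, chr11:100939541-100939790 (minus strand) for Stat3, chr4:101265224-101265473 (minus strand) for Jak1 and chr11:117969367-117969616 (minus strand) for Socs3. The run of Socs3 lies inside the gene, which reaches 117970336. Those of Stat3 and Jak1 overlap the ends of their genes, at 100939594 and 101265282.
Il22ra1: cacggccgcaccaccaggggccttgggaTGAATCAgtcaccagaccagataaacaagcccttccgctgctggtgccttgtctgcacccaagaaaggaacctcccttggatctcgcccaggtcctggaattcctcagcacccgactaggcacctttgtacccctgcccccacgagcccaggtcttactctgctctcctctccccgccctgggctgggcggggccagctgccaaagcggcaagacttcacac
Stat3: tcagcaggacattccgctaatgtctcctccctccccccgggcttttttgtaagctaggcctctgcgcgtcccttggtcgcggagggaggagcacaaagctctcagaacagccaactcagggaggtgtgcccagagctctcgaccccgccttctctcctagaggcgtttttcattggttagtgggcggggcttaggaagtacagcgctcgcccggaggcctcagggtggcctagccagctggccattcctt
Jak1: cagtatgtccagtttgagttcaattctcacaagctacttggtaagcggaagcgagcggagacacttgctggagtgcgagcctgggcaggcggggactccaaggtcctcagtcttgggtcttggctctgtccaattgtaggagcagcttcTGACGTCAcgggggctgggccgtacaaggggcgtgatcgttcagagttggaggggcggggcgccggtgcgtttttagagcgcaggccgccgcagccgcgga
Socs3: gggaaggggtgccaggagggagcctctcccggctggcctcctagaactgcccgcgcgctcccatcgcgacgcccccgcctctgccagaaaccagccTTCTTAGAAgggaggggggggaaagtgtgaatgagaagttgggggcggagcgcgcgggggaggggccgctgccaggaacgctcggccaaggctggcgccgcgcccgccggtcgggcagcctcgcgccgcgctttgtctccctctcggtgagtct

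The promoter table held 9 of the 10 genes, all but Il10rb, as 300 bases each, from 250 before to 50 after the start. TGANTCA occurred in 2 of these 9, Il22ra1 and Osmr, against 7.85% of all 32619 promoters. TTCNNNGAA occurred in 1, Socs3, against 8.34%, and TGACGTCA in 1, Jak1, against 1.8%. The match of Il22ra1 began 222 bases before the start, 204 bp from the summit there, that of Socs3 154 bases before it and 140 bp from the summit, and that of Jak1 101 bases before it and 72.5 bp from the summit, distances being taken from the middle of the match. The promoter of Stat3 held none of the 3. The match of Osmr lay just after the start, 1812 bp from the nearest summit, and is shown because it is a match with no summit at the promoter (chr15:6874294-6874320, minus strand).
Osmr: gccccgtagtTGATTCAtagctggggc
A match is a description of letters and not a measured site. Over all promoters, TGANTCA was present in 5.95% of those with a Fos summit within 1 kb and in 9.78% of those without one, while TGACGTCA was present in 2.80% and 0.787%. In the 250 bases before the start, the median share of G and C was 65.2% over the 9 genes and 52.4% over all promoters. Neither the 9 genes nor the groups of promoters were matched on base composition.

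The 10 genes had 271 summits in 157 regions, and no summit was counted for more than 1 of them. They differed widely, with 60 summits at Il22ra1, 50 at Socs3, 37 at Jak2, 29 at Socs1, 26 at Stat3, 25 at Jak1, 24 at Il10rb, 12 at Il6ra, 6 at Il6st and 2 at Osmr. The median was 25.5 summits per gene, against 16 over all protein-coding genes, whose quartiles were 5 and 29. At least 25 summits, a limit not set in the plan, were counted at 6 of the 10, against 33.1% of all protein-coding genes. Jak1 lay at that limit and Il10rb, with 24, just below it. Il22ra1, Socs3 and Jak2, 3 of the 10, lay above the upper quartile of all genes, and Osmr lay below the lower one.

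**Figure D1:**
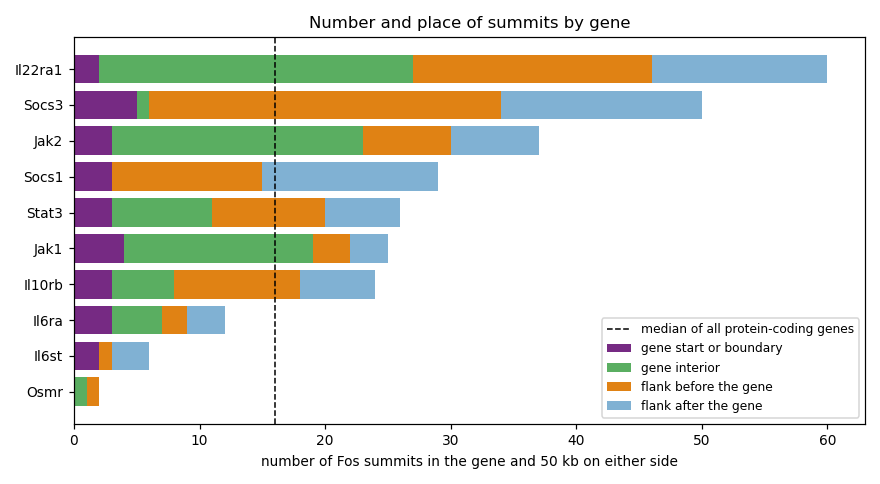
Number of Fos summits (x axis) in each gene and 50 kb on either side, by place: within 1 kb of the start or an end of the gene, in its interior, or in the flank before or after it (for Il10rb, below or above it on the chromosome). The dashed line is the median of all protein-coding genes, 16, and Il22ra1 has 60 summits against 2 at Osmr.

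Counts grow with the length of a gene, since the window does, so they were also set per 100 kb of window. Socs3, a gene of 4258 bp, had 48.0 summits per 100 kb and Il22ra1 47.2, more than 97.0% and 96.8% of protein-coding genes. Jak1, the longest of the 10 at 113309 bp, had 11.7 per 100 kb, near the 11.1 that was the median over all genes. The median over the 10 was 18.5. The typical summit was no stronger than elsewhere, with a median fold of 6.73 (quartiles 4.33 and 19.1) over the 271 summits and of 6.73 (4.09 and 15.4) over all summits of the list.

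**Figure D2:**
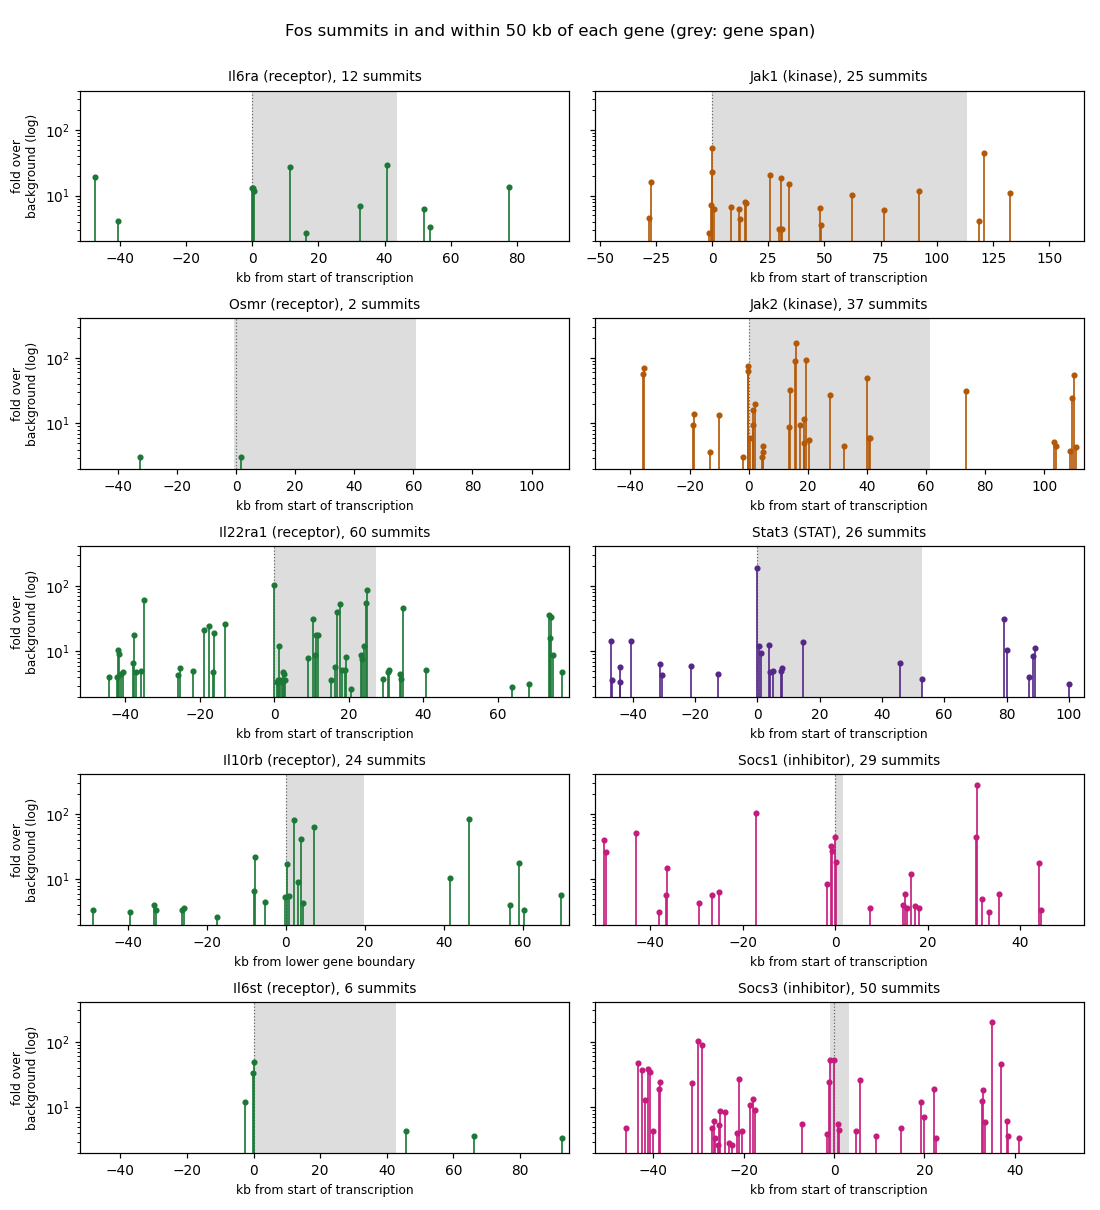
Fold over background (log axis) of every Fos summit by its distance in kb from the start of transcription, in the direction of the gene, with the gene span in grey. For Il10rb, distance runs from the lower gene boundary; Stat3 shows 1 tall summit at its start, with a fold of 190.5, while the tallest near Socs1 and Socs3 stand over 30 kb beyond the start.

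The strongest summit of a gene lay at its start in 4 cases, Stat3, Il22ra1, Jak1 and Il6st. It lay in the interior at Il6ra and Jak2 and outside the gene at Il10rb, Socs1 and Socs3. Osmr had 2 summits of the same fold. A fold of 100 or more was reached at 5 of the 10, Socs1, Socs3, Stat3, Jak2 and Il22ra1, against 26.8% of all protein-coding genes. The median of the highest fold was 93.7 over the 10 and 55.1 over all protein-coding genes, where 2954 genes with no summit entered as 0. In the lists described below, it was 109.0 for STAT3 targets, 101.5 for other receptors, 93.0 for other JAK and STAT genes, 73.1 for other inhibitors and 58.0 for ligands. For the markers it was 168.1 in colonic epithelium, 91.5 in leukocytes, 78.9 in endothelium and 8.66 in fibroblasts. Highest folds were not corrected for the length of the window. The median gene length was 43332 bp over the 10 and 17329 bp over all protein-coding genes. Of the 271 summits, 147 (54.2%) had the pathway gene as their nearest protein-coding gene, and the other 124 lay nearer to or inside a neighbour. Assignment rests on distance alone.

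**Figure D3:**
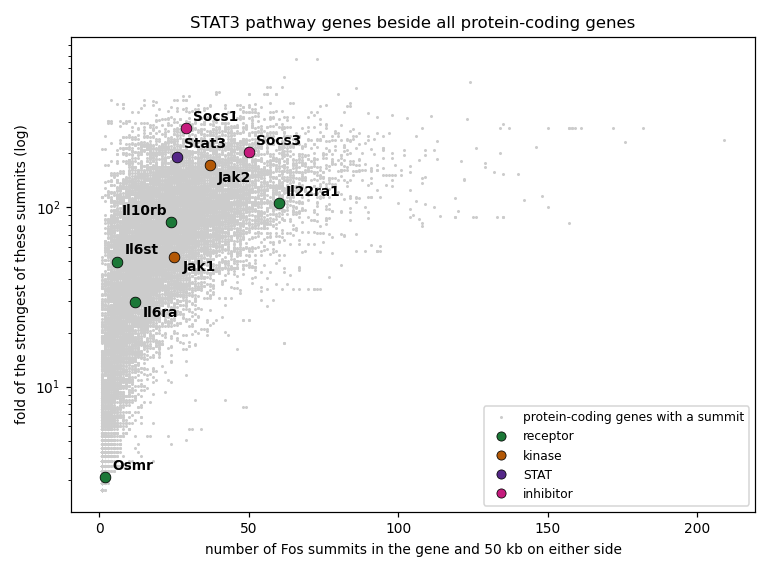
Number of Fos summits in a gene and 50 kb on either side (x axis) and fold of the strongest of them (y axis, log) for every protein-coding gene with a summit, with the 10 pathway genes coloured by role. Osmr lies at the low corner of the cloud (2 summits, fold 3.13) and Socs1 near its top (29 summits, fold 275.2).

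Il22ra1 encodes the chain that gives epithelial cells their response to interleukin-22, and it was the receptor gene with the most Fos signal. The gene lies on chromosome 4 from 135728159 to 135755383, and 25 of its 60 summits lay in its interior. Its strongest summit, at 135728144, was 15 bp before the start of transcription in the promoter printed above, with a fold of 104.9 and 435 fragments (395 to 478). That summit belonged to a region of 3793 bp with 9 summits. The next, at 135753037, lay near the far end of the gene, 24878 bp after the start, with a fold of 85.6 and 355 fragments (319 to 394). Interior summits with folds of 55.1 and 52.2 followed 24557 and 17790 bp after the start. The neighbour Ifnlr1 encodes the interferon-lambda receptor chain and ends 19977 bp before Il22ra1. It was the nearest protein-coding gene of 19 summits in this window, the strongest with a fold of 61.6. Myom3, 3416 bp beyond the other end, was nearest to 14, the strongest with a fold of 46.2. Il22ra1 itself was nearest to 27 of the 60 summits.

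Il10rb encodes the second chain shared by the receptors of interleukin-10, interleukin-22 and interferon lambda. It lies on chromosome 16 from 91406157 to 91425834 and had 24 summits. Its strongest, at 91452605, lay 26771 bp above the gene; its fold was 82.5, with 342 fragments (307 to 380); Il10rb was still the nearest protein-coding gene. Inside the gene, summits at 91408261 and 91413348 had folds of 80.6 and 63.7. The first of these, with 334 fragments, lay within the counting interval of the strongest. The signal at the lower boundary was weaker, with 3 summits whose folds were 16.8, 5.53 and 5.29. Ifnar2, an interferon receptor gene, ends 567 bp below Il10rb, so these 3 lie close to both genes.

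Il6st encodes gp130, the signalling chain shared by the whole interleukin-6 family, and its strong Fos signal lay at its start. The gene lies on chromosome 13 from 112464070 to 112506860 and had 6 summits, none of them in its interior away from the start. Those at 63 bp after and 269 bp before the start had folds of 49.8 and 33.4, with 206 fragments (179 to 236) and 138 fragments (116 to 163). Another, 2642 bp before the start, had a fold of 12.0. The remaining 3 lay beyond the gene with folds of 3.37 to 4.33, close to the weakest fold in the list, 2.65.

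Il6ra, the interleukin-6 receptor gene, lies on chromosome 3 from 89869324 to 89913196 and had 12 summits. Their median fold was 12.4, the highest median of the 10 genes, while their highest fold lay below 55.1, the median highest fold over all protein-coding genes. The strongest, at 89872507, was 40689 bp after the start, near the far end of the gene, with a fold of 29.6 and 122 fragments (101 to 146), and also lay inside the overlapping long noncoding gene Gm46811. A second interior summit 11543 bp after the start had a fold of 27.7, with 114 fragments, within the counting interval of the first. At the start itself, summits 84 bp before and 259 bp after it both had a fold of 13.0.

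Osmr encodes a receptor chain that pairs with gp130 for oncostatin M and with the product of Il31ra for interleukin-31. It lies on chromosome 15 from 6813568 to 6874968 and was the gene with the least signal of the 10. Its listed start, at 6874313, lies inside this span. One summit lay inside the gene, 1818 bp after the start, and one 32430 bp before the start. Each had a fold of 3.13 and 12 fragments (6.20 to 21.0). Neither was kept at a −log10 q of at least 5. It was the one gene of the 10 with no summit within 1 kb of either end.

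Jak2, the kinase tied to many cytokine receptors including gp130, lies on chromosome 19 from 29251803 to 29313095 and had 37 summits, 20 in its interior. The strongest, at 29267750, was 15947 bp after the start, with a fold of 171.7 and 713 fragments (662 to 767), and shared a region of 1132 bp with a summit of fold 90.9. Another interior summit, 19536 bp after the start, had a fold of 93.8. The start itself carried summits 337 and 95 bp before it with folds of 76.2 and 63.7. A pair 35427 and 35699 bp before the start had folds of 69.8 and 57.7, with Jak2 as the nearest protein-coding gene. Near the far edge of the window, a summit with a fold of 55.1 lay inside Plgrkt and within 1 kb of an end of Cd274, which encodes the immune checkpoint ligand PD-L1.

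Jak1, the kinase that pairs with gp130 and with the receptors of interleukin-10 and interleukin-22, lies on chromosome 4 from 101151974 to 101265282. Of its 25 summits, 15 lay in the interior, the strongest of these with a fold of 20.4. The strongest of all lay at 101265393, 170 bp before the start, with a fold of 52.9 and 219 fragments (191 to 250). A second summit 60 bp after the start had a fold of 23.1. Beyond the far end, a summit with a fold of 44.0 lay inside the neighbour Raver2, which overlaps the end of Jak1. The kinase genes differed in where the strong signal lay, 52.9 at the start and at most 20.4 in the interior at Jak1, against 76.2 and 171.7 at Jak2.

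Stat3 had 26 summits, and 1 of them stood far above the rest. The gene lies on chromosome 11 from 100886806 to 100939594. The summit at 100939627, 87 bp before the start and inside the promoter printed above, had a fold of 190.5 and 791 fragments (737 to 848). The overlapping long noncoding gene Gm46295 also has an end within 1 kb of it. The second strongest summit in the window reached a fold of 30.8, or 127 fragments (106 to 151), and lay inside Stat5a, the neighbour on the far side. The strongest in the interior, 14764 bp after the start, had a fold of 14.0. The Stat3 window also takes in parts of Stat5b and Cavin1, and 11 of its 26 summits had Stat3 as their nearest protein-coding gene.

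Socs3 encodes the inhibitor that binds gp130 and Jak kinases. It lies on chromosome 11 from 117966079 to 117970336 and had 50 summits. The strongest, at 117934402, lay 34964 bp after the start of transcription and 31677 bp below the gene, with a fold of 202.5 and 841 fragments (785 to 900). Socs3 was the nearest protein-coding gene. At the start, summits 10 and 825 bp before it had folds of 53.4 and 52.7, in a region of 2994 bp with 6 summits. The listed start, at 117969366, lies inside the gene, and so do both of these summits. On the other side, summits 30183 and 29233 bp before the start had folds of 104.2 and 90.2, inside the neighbour Pgs1, a gene of phospholipid synthesis. Pgs1 was nearest to 27 of the 50 summits and Socs3 to 23. With a window of 20 kb, which leaves out the strongest, Socs3 had 19 summits and a highest fold of 53.4.

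Socs1 encodes the inhibitor best known for restraining interferon signalling, which blocks the Janus kinases directly. It lies on chromosome 16 from 10783808 to 10785536, a gene of 1729 bp, and had 29 summits. Its start carried summits 151 and 672 bp before it with folds of 44.3 and 27.2 and one 224 bp after it with a fold of 18.5. The strongest summit of all 271, at 10754810, lay 30726 bp after the start with a fold of 275.2 and 1143 fragments (1078 to 1211), in intergenic sequence 9932 bp from Clec16a, its nearest protein-coding gene. On the other side, a summit 17142 bp before the start had a fold of 102.0 and lay nearest to Prm1, a sperm protamine gene. Of the 29 summits, 11 had Socs1 as their nearest protein-coding gene, the strongest of them with a fold of 44.3. With a window of 20 kb, Socs1 had 13 summits and a highest fold of 102.0.

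**Figure D4:**
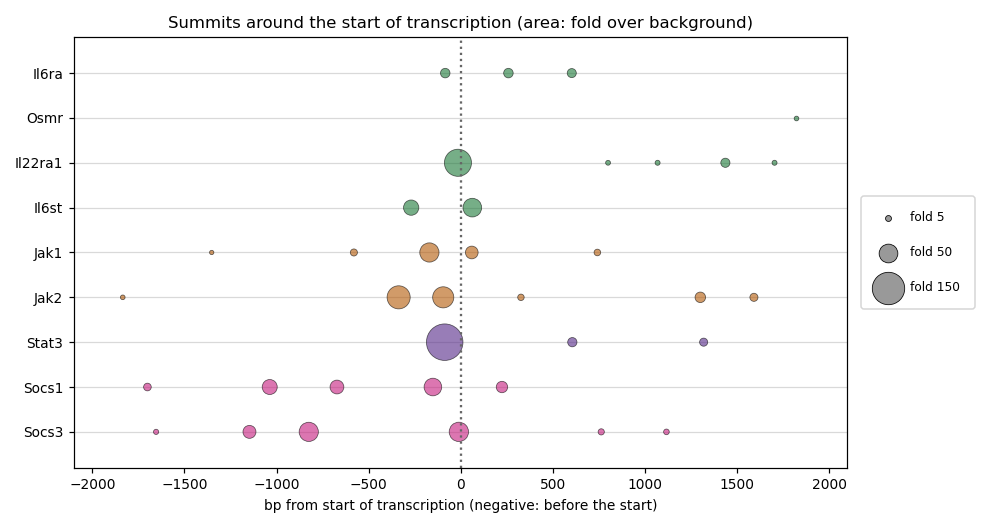
Fos summits within 2 kb of the start of transcription (x axis, bp) for the 9 genes in the promoter table, with the area of each point in proportion to the fold over background. The strongest sits 87 bp before the start of Stat3, with a fold of 190.5, and Osmr has no summit within 1 kb of its start.

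A summit within 1 kb of either end of the gene was present at 9 of the 10 genes, against 62% of all protein-coding genes. A summit within 1 kb of the start of transcription was present at 8 of the 9 genes in the promoter table, against 62.2%. The folds at the start were 190.5 at Stat3, 104.9 at Il22ra1, 76.2 at Jak2, 53.4 at Socs3, 52.9 at Jak1, 49.8 at Il6st, 44.3 at Socs1 and 13.0 at Il6ra. Their median was 53.2, and that of all genes with a summit at the start was 29.1, with quartiles 12.5 and 57.0. The start of Stat3 was stronger than 98.6% of those genes and that of Il6ra stronger than 25.4%. The regions over these starts were wide at Il22ra1 (3793 bp), Socs3 (2994 bp) and Socs1 (2761 bp), against a median of 1320 bp over all genes with a summit at the start. In the order of start folds, the pileups of Socs3, Jak1 and Il6st (221, 219 and 206 fragments) lay within each other's counting intervals.

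The limit of 50 kb fell in no gap of the signal. Between 45 and 50 kb from the 10 genes lay 19 summits, the strongest with a fold of 55.1, and between 50 and 55 kb lay 23, the strongest with a fold of 62.3.

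Other genes of the pathway were taken as lists and described in the same window. The 11 ligand genes had a summit at an end of the gene in 6 cases and a median of 22 summits, against 9 of 10 and 25.5 for the 10 pathway genes and 62% and 16 for all protein-coding genes. Clcf1, a cardiotrophin-like cytokine gene, had 49 summits, Il27 41 and Il11 32. Osm, the gene of oncostatin M, also had 32, and Il6 and Il22 had 4 and 0. The ligand genes with no end summit were these 2, Osm, Il27 and Il10. The 10 other receptor genes had an end summit in 4 cases and a median of 16.5. Ifnlr1 led with 57, in a window that overlaps that of Il22ra1. Cntfr and Il27ra had 36 each. The highest folds near Il22ra2 (229.5), Il27ra (159.0) and Il10ra (142.9) exceeded the 104.9 near Il22ra1, and the median over the 10 other receptor genes was 101.5.

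All 8 other JAK and STAT genes had an end summit, with a median of 25. Stat6, which acts in interleukin-4 and interleukin-13 signalling, had 62 summits and an end fold of 48.1, Jak3 had 41 and Tyk2 28. Their end folds ran from 6.01 at Stat4 to 64.0 at Stat2, below the 190.5 at Stat3. All 11 other inhibitor genes had an end summit as well, with a median of 29. Pias4, a SUMO ligase of the PIAS family, had 88 summits, the phosphatase gene Ptpn6 54 and Cish, a SOCS family gene, 47. The end fold of Ptpn6 was 160.0.

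Known STAT3 target genes had the highest median of the pathway lists, 54 summits, and an end summit at 14 of 16, all but Hif1a and Reg3b; Hif1a did have a summit within 1 kb of its start in the promoter table. Fut2, a fucosyltransferase gene of the gut epithelium, had 72 summits, the survival gene Mcl1 69 and Bcl3 67. Reg3g and Reg3b, antimicrobial lectin genes that interleukin-22 induces, had 3 and 2 summits. These neighbours on chromosome 6 are paralogs, and no source used here says how reads were placed among them. The target list holds Fos and Junb, which are AP-1 genes themselves. None of the lists was matched on gene activity, length or density.

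**Figure D5:**
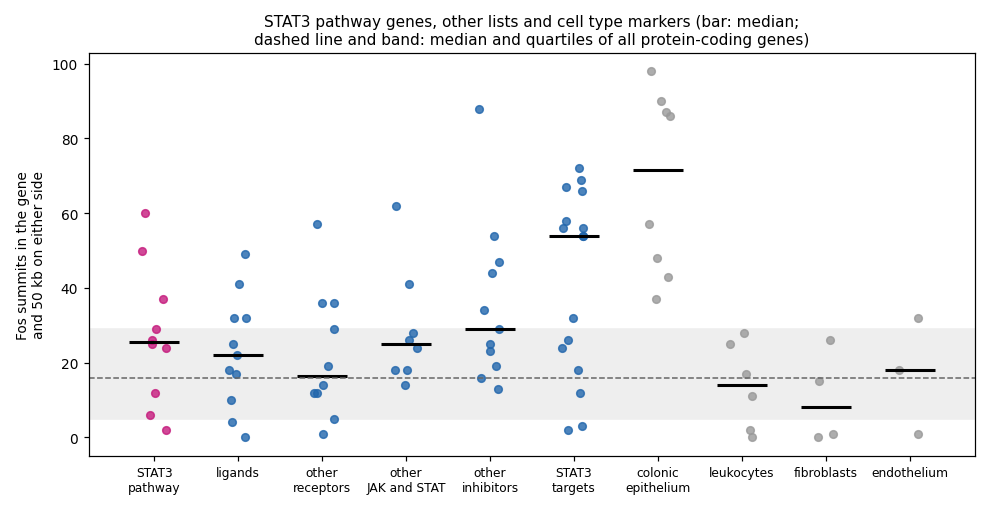
Number of Fos summits per gene (y axis) for the 10 STAT3 pathway genes, the other pathway lists and cell type markers, 1 point per gene, with medians as bars and the median and quartiles of all protein-coding genes as dashed line and band. The medians are 25.5 for the 10 genes, 54 for STAT3 targets and 71.5 for colonic epithelium markers, against 16 for all genes.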

How the data were processed

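Nuclei of scraped mucosa, held on lectin beads, were treated with a Fos antibody, a secondary antibody and protein A/G-Tn5, per the labels' protocols. Bowtie2, MACS2 and mm10 are named in the submitters' processing notes, with no version or command; whether libraries were pooled is not given in the sources used here. In the deposited list each summit has a fold (a linear ratio over background), a −log10 p-value and q-value and a score (10 times the −log10 q). The authors' values were used to describe and rank summits within the list only. Its lowest −log10 q was 1.80.

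Folds were whole multiples of 0.241 within 0.05 steps, read as (pileup + 1) over (background + 1), with a background of 3.16. A Poisson −log10 p from these pileups matched the deposited one within 0.01 at 100% of 166926 summits. The check left out those of the 178981 summits with the largest −log10 p, among them the strongest of Socs1, Socs3, Stat3 and Jak2. Genes came from the RefSeq table of GRCm38.p6 and starts and strands from its promoter table. Exons and introns were not told apart. Positions are 1-based. Values were computed with Python 3.11.15, numpy 2.4.6, pandas 2.3.3 and scipy 1.17.1, and counting was tested on simulated summits. Named were the 10 genes, in each other pathway list the 3 genes with the most summits (ties by fold), and genes without an end summit where 5 or fewer; other names, such as Reg3g, Stat2, Stat4 and the markers, were chosen after their values were seen. One planned gene of the receptor list is not reported here. Genes and lists were chosen with earlier results of these data known. AP-1 and STAT letters at summits outside promoters were planned but no genome was used here. The alternatives tried were windows of 20 and 100 kb, −log10 q of at least 5 and 10, 1 summit per region, no regions wider than 3000 bp, nearest gene only, and boundaries of 500 and 2000 bp.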

Additional observations from a re-analysis of the deposited data

How the results depend on the processing

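The 271 summits became 161 with windows of 20 kb, 166 with a −log10 q of at least 10, 156 with 1 summit per region and 147 with the nearest protein-coding gene only, where fewer are counted by construction. The median of 25.5 summits per gene became 12.5 with 20 kb, 39 with 100 kb and 11 with the nearest gene only. The median highest fold of 93.7 became 67.0 with 20 kb, 105.7 with 100 kb, 84.1 without regions wider than 3000 bp and 67.7 with the nearest gene only. Medians over all protein-coding genes are given for the 50 kb window with all summits only. They are no counterpart to these values, and whether the differences from all genes hold at other settings is not shown. The count of genes with an end summit was 8 without regions wider than 3000 bp and 9 otherwise, and that with a start summit ran from 7 to 9. The order depends on the window too: with 20 kb, Socs3 had 19 summits, with a highest fold of 53.4, and Socs1 13, with 102.0. With the nearest gene only, the highest fold of Socs1 was 44.3. Without regions wider than 3000 bp that of Il22ra1 was 85.6. With 100 kb, Osmr had 7 summits, the strongest with a fold of 27.7. The gene start results, highest folds by gene and TGACGTCA were added after the data were seen. The limits of 25 summits and of a fold of 100 were not part of the plan. No paired analysis was possible because the list has no column per library. Depth limits weak summits: the weakest in the list rests on 10 fragments.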
